A study of Homo sapiens with 4 samples.

Results

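The data describe RNA polymerase II (RNAPII)-linked DNA loops on human chromosome 17. They were taken as all loops of the mock or the pyridostatin (PDS) list whose anchors lie on this chromosome. The mock list held 4450 of them out of 66417 loops, the PDS list held 1218 out of 18778, and 5118 of 77862 different loops were found in either list. HepG2 cells come from a human liver cancer and have an abnormal chromosome number, and numbers of loops per Mb were not corrected for DNA copy number. Mock-treated cells received sterilized water and PDS-treated cells 20 µM PDS for 24 h, and POLR2A HiChIP-seq was performed on 2 biological replicates per condition, 4 libraries in all. The authors deposited a single loop list per condition with both replicates combined. There was hence no replicate spread and no test between conditions, and every interval below is a 95% interval that covers counting error only.

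In HiChIP, cross-linked chromatin is cut with a restriction enzyme, here MboI, joined end to end, and enriched with an antibody, here against POLR2A, the largest subunit of RNAPII. A paired-end tag (PET) is a read pair that joins 2 anchors, and every loop of these lists has at least 3 PETs. The tool that called loops is not given, so the PETs of a pair of anchors missing from a list are not known. A guanine quadruplex (G4) is a folded DNA structure that runs of G on the same strand can form, often near promoters, and PDS is a small molecule that binds it. Loops of RNAPII connect promoters with other promoters, with enhancers and with stretches inside genes. Chromosome 17 is known for a high density of genes, for clusters of type I keratin, HOXB and chemokine genes, and for blocks of sequence present in more than 1 copy.

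A G4 motif is taken here as a stretch with 4 runs of G, each of 3 or more, set 1 to 7 bases apart, on either strand. The bases between runs may themselves be G, so that a long unbroken run can count as more than 1 run, as in the FAM20A and FASN motifs. The motifs below are those nearest upstream of the gene start within a promoter anchor, and runs of G are in capitals. They are shown because the genes stand for the patterns described further on. CCDC57, LLGL2, SPAG9 and MSI2 had the most mock promoter loops among genes with a motif so placed. The promoters of ABCC3, FAM20A and RARA had many mock loops and no PDS loop, UNC119 had PDS loops alone, FASN stands for liver metabolism, and POLR2A codes for the protein that was pulled down.
CCDC57, chr17:82213049-82213075, plus strand: GGGGctccGGGctatGGGGacggcGGG
LLGL2, chr17:75524797-75524824, minus strand: GGGcaaagcaGGGGtgaGGGGctGGGGG
SPAG9, chr17:51121099-51121124, plus strand: GGGattcgcGGGGcGGGtcccaGGGG
MSI2, chr17:57255576-57255603, minus strand: GGGGtgtctctGGGatggatGGGaaGGG
ABCC3, chr17:50634720-50634749, minus strand: GGGaGGGactttGGGGcagaggtGGGGGGG
FAM20A, chr17:68601603-68601627, plus strand: GGGGGGGGGtGGGGGGaggcGGGGG
RARA, chr17:40308734-40308758, plus strand: GGGaataattGGGaGGGatgaaGGG
UNC119, chr17:28552670-28552689, minus strand: GGGGcGGGGccGGGGcGGGG
FASN, chr17:82098432-82098448, plus strand: GGGGGGGtGGGGctGGG
POLR2A, chr17:7484295-7484316, plus strand: GGGaGGGcGGGaaaggaaGGGG

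Not every promoter window of a looped gene held the motif. A pair of RefSeq promoters (GRCh38.p14), each with the 250 bases before the start site, shows a window with motifs and a window without, with motif runs of G, or of C for a motif on the opposite strand, in capitals. SEPTIN9, the gene with the most PDS promoter loops, has 9 such windows in its anchors, of which 7 held no motif. The window with the most, chr17:77281249-77281498 (plus strand), had 3 motifs and 80.4% G or C. G6PC1, which codes for the glucose-releasing phosphatase of the liver, had no motif and 44% G or C at chr17:42900549-42900798 (plus strand). The whole G6PC1 promoter anchor, which is wider than this window, held 1 motif. The G6PC1 promoter had 7 mock loops and no PDS loop.
SEPTIN9: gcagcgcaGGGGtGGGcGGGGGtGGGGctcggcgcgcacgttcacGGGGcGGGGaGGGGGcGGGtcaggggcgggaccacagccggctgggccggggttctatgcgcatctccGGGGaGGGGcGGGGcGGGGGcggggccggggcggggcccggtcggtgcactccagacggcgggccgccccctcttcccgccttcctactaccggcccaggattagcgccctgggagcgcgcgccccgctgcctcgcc
G6PC1: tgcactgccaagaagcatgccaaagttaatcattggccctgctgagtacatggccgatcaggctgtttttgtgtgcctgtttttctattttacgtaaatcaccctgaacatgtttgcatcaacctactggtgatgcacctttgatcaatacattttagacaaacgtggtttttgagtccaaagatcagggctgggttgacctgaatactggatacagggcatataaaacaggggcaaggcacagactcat
Among RefSeq promoter windows, which also take in the first bases after the start site, 30.3% (28.1 to 32.5) of 1639 on chromosome 17 and 24.7% (24.3 to 25.2) of 33477 elsewhere held a motif. Loop anchors of chromosome 17 held 0.332 motifs per kb and the rest of the chromosome 0.179 per kb.

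The chromosome was densely looped in mock-treated cells. It had 53.4 mock loops per Mb, the second highest value of 23 chromosomes after chromosome 20 with 89.1 per Mb, and 14.6 PDS loops per Mb, which ranked 4 of 23. It also ranked 2 of 23 in coding genes per Mb, with 14.2, and 6 of 23 in mock loops per coding gene, with 3.75. The PDS/mock ratio of loop numbers was 0.274 (0.257 to 0.292), against 0.283 (0.279 to 0.288) for all other sequences, and the chromosome 17 ratio over the ratio elsewhere was 0.966 (0.905 to 1.03). Without loops whose anchors were rich in sequence of more than 1 copy it was 0.901 (0.826 to 0.984). In PETs the ratio was 0.246 (0.238 to 0.254), from 17441 mock and 4291 PDS PETs, against 0.264 (0.262 to 0.267) elsewhere. Among single chromosomes, both the loop ratio and the PET ratio of chromosome 17 ranked 6 of 23 from the top. Only chromosomes 2, 6, 14, 16 and 20 ranked above it, with loop ratios from 0.296 to 0.369. They are part of the pooled values elsewhere. Valid read pairs per library were not given in the sources used here, so that a fall in loop number and a lower depth of the PDS libraries cannot be told apart.

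The PDS/mock ratio was lower for loops with many PETs than for loops with few. The PDS list held 841 loops of 3 PETs where the mock list held 2531, a ratio of 0.332 (0.307 to 0.359). At 5 or more PETs it held 134 against 953, a ratio of 0.141 (0.117 to 0.168), and at 10 or more PETs it held 5 against 58. The same ratios elsewhere were 0.336 (0.329 to 0.343) at 3 PETs and 0.15 (0.142 to 0.158) at 5 or more. Since a lower depth moves loops below the minimum of 3 PETs, these ratios depend on it.

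Loops were spread unevenly over the arms. The arms were divided in the middle of the longest stretch without an annotated gene, chr17:22706704-26981693, which spans the centromere. The short arm, 24.8 Mb with 346 coding genes, held 619 mock and 146 PDS loops, or 24.9 and 5.88 per Mb. The long arm, 58.4 Mb with 840 coding genes, held 3831 mock and 1072 PDS loops, or 65.6 and 18.4 per Mb. Per coding gene the short arm had 1.79 mock loops and the long arm 4.56. A promoter was found in 62.4% of short-arm and 58.1% of long-arm mock loops, and a G4 motif in 81.3% of both. An anchor with more than 20% of its 31-base sequences present more than once in the reference was found in 47.8% and 42.5%, and 16.2% and 22.3% had at least 5 PETs.

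PDS/mock ratios of the arms were 0.236 (0.197 to 0.282) on the short arm and 0.280 (0.262 to 0.299) on the long arm. The short-arm ratio over the long-arm ratio was 0.843 (0.695 to 1.02), an interval that includes 1. Among loops of at least 5 PETs, the short arm had 100 in the mock list and 4 in the PDS list, while the long arm had 853 and 130. That ratio of ratios was 0.262 (0.0950 to 0.725), or 0.279 (0.101 to 0.772) outside the gene-free stretch. It rests on 4 PDS loops and was computed after these counts were seen. Of the short-arm mock loops 8.08% were also in the PDS list, and of the long-arm mock loops 13.1%.

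Windows of 5 Mb placed the densest looping at the end of the long arm. The last window, from 80 Mb to the end at 83.3 Mb, had 105 mock and 27.3 PDS loops per Mb, and the window from 75 to 80 Mb had 102 and 33 per Mb. The window from 40 to 45 Mb, which holds the keratin genes and the highest number of coding genes, 185, had 91.6 and 25.6 per Mb. At the other end, the window from 20 to 25 Mb held 21 mock and 11 PDS loops, and that from 10 to 15 Mb held 89 and 23. Gene number followed loop number only in part. The window from 65 to 70 Mb had 404 mock loops and 29 coding genes, or 13.9 loops per gene, whereas that from 5 to 10 Mb had 182 loops and 137 genes, or 1.33 per gene. Across the 17 windows the rank correlation of coding genes with mock loops was 0.424 (Pearson 0.411), or 0.257 (Pearson 0.289) without the windows from 20 to 30 Mb, and that of mock with PDS loops was 0.964 (Pearson 0.976). Both are descriptions over windows that share libraries.

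**Figure D1:**
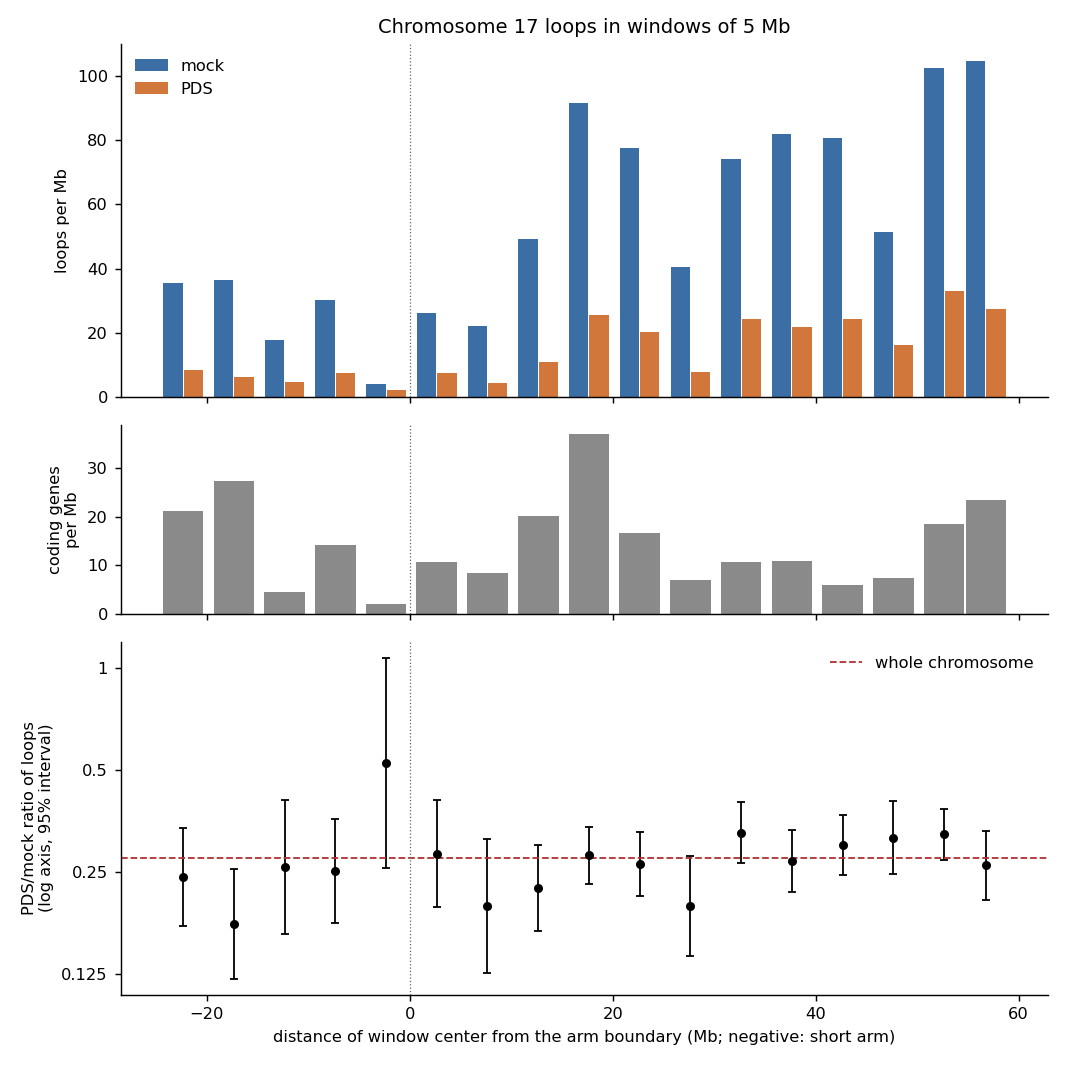
Loops per Mb in the mock and PDS lists (top), coding genes per Mb (middle) and the PDS/mock ratio of loop numbers with its 95% counting interval (bottom, log axis) in 17 windows of 5 Mb, placed by the distance of their center from the arm boundary. The dashed line is the ratio of the whole chromosome, 0.274, and the interval of the window from 5 to 10 Mb lies below it.

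Ratios of the windows lay close to that of the chromosome. Of the 16 windows with at least 30 mock loops, 1 had an interval below the chromosome ratio and 0 had an interval above it. Over all chromosomes, the intervals of 3.86% of 440 windows lay below the ratio of their chromosome, and 3.86% lay above it. The window below was that from 5 to 10 Mb, with 182 mock and 32 PDS loops and a ratio of 0.176 (0.121 to 0.255). Of its mock loops 3.85% (1.88 to 7.73) were in the PDS list, against 12.4% (11.4 to 13.4) on the chromosome as a whole. That share is bounded by the same low number of PDS loops and is not a separate result. POLR2A is 1 of the 137 coding genes of this window. The next lowest ratios, 0.198 (0.141 to 0.278) at 50 to 55 Mb and 0.198 (0.126 to 0.312) at 30 to 35 Mb, had intervals that included the chromosome ratio. Highest among the windows counted were 0.326 (0.266 to 0.40) at 55 to 60 Mb and 0.322 (0.27 to 0.384) at 75 to 80 Mb, which also included it. With PETs in place of loops, 3 windows lay above and 3 below the chromosome ratio, but the PETs of a loop are not independent counts.

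At 1 Mb, 22 of 84 bins held 50% of the mock loops, and the median bin had 50 mock and 12 PDS loops. The fullest bin, from 75 to 76 Mb, had 147 mock and 42 PDS loops and 37 coding genes. Other full bins had few genes. The bin from 72 to 73 Mb had 109 mock and 25 PDS loops with 2 coding genes, SOX9, a transcription factor of cartilage and sex determination, and SLC39A11, a zinc transporter. In the bin from 77 to 78 Mb there were 102 mock and 37 PDS loops with 3 coding genes, SEC14L1, SEPTIN9 and TNRC6C. These bins were picked after their values were seen.

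A promoter anchor is one within 1 kb of the start site of any transcript of a coding gene. In the mock list 58.7% (57.2 to 60.1) of loops had a promoter anchor and in the PDS list 54.2% (51.4 to 57.0), against 45.1% and 40.5% elsewhere. With the start of the gene alone in place of all transcripts, the shares on chromosome 17 were 33.3% and 29.6%. The PDS/mock ratio was 0.253 (0.232 to 0.275) for loops with a promoter and 0.303 (0.276 to 0.333) for loops without. The former over the latter was 0.834 (0.734 to 0.947), and the same comparison elsewhere gave 0.829 (0.801 to 0.858). Loops with no coding gene in either anchor had a ratio of 0.325 (0.281 to 0.375). Loops with a promoter at both anchors made up 20.9% of the mock list, against 12.1% elsewhere.

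G4 motifs were common in the anchors, and the ratios with and without a motif had overlapping intervals. At least 1 anchor held a motif in 81.3% (80.2 to 82.4) of mock loops and 80.1% (77.8 to 82.3) of PDS loops, against 74.8% and 75.2% elsewhere. With runs of at least 4 G the shares on chromosome 17 were 27.2% and 28.5%. The ratio was 0.277 (0.252 to 0.305) with motifs in both anchors, 0.262 (0.236 to 0.290) with a motif in 1 anchor and 0.291 (0.252 to 0.336) with none. Motif loops over loops without a motif gave 0.926 (0.789 to 1.09), and elsewhere 1.02 (0.983 to 1.06). A motif match is a stretch of letters and was not measured as a folded structure here. Mock loops with motifs in both anchors were also in the PDS list in 15.3% of cases, loops with a motif in 1 anchor in 9.65%, and loops without a motif in 11.2%. By GC content, the ratio was 0.273 (0.230 to 0.324) for loops under 40% GC, 0.316 (0.279 to 0.358) at 40 to 45%, 0.275 (0.244 to 0.310) at 45 to 50%, 0.245 (0.213 to 0.282) at 50 to 55% and 0.244 (0.203 to 0.293) at 55% or more.

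**Figure D2:**
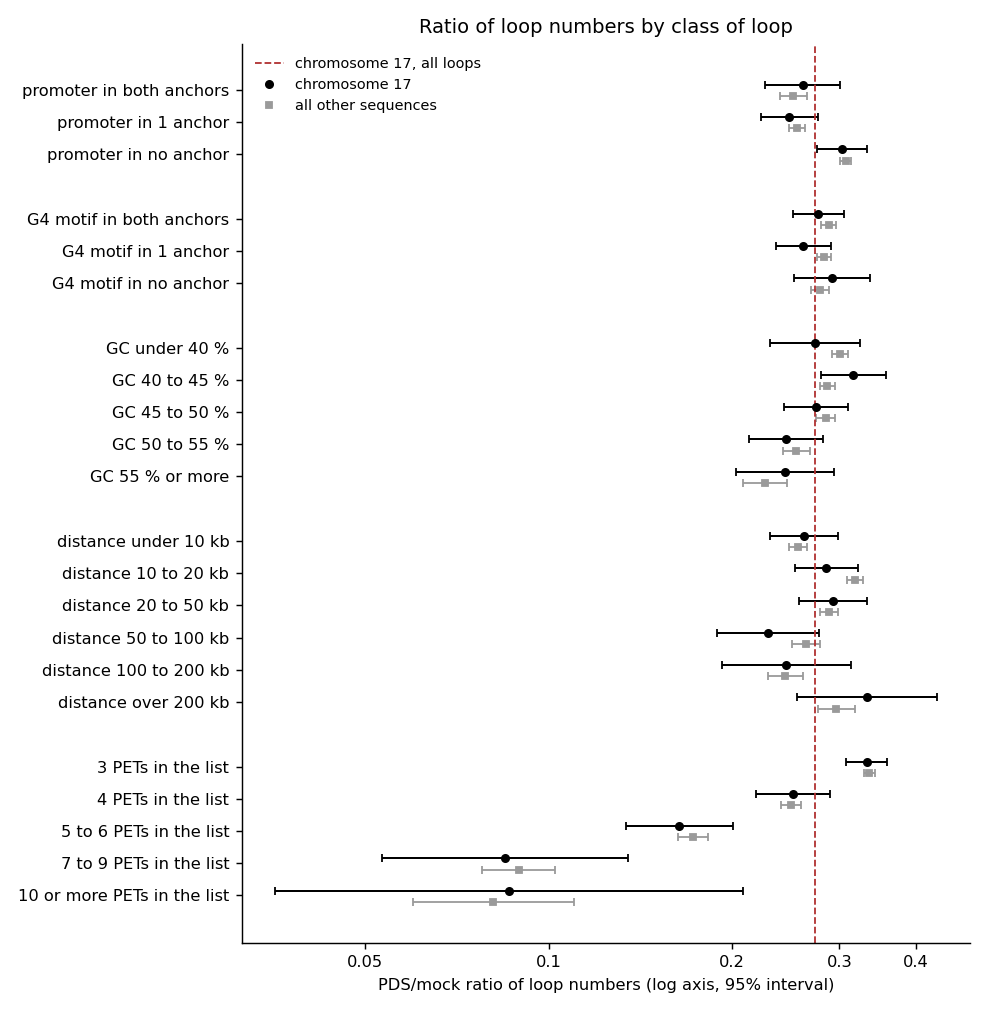
PDS/mock ratio of loop numbers (log axis, 95% counting interval) by promoter anchors, G4 motifs, GC content, distance and PETs, for chromosome 17 (circles) and all other sequences (squares). The dashed line is the ratio of all chromosome 17 loops, 0.274, and the ratio fell from 0.332 at 3 PETs to 0.0848 at 7 to 9 PETs.

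Distances between anchors were similar in both lists. The median was 18650 bp (18010 to 19392) in the mock list and 18257 bp (17184 to 20197) in the PDS list. Ratios by distance ran from 0.229 (0.189 to 0.277) at 50 to 100 kb to 0.333 (0.256 to 0.434) over 200 kb, with overlapping intervals.

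Loops found in both lists numbered 550, which is 12.4% of the mock loops and 45.2% of the PDS loops, against 10.9% and 38.6% elsewhere. Shared means the same pair of anchors. With anchors extended by 5 kb, 28.3% of the mock loops had a counterpart in the PDS list, so a loop called absent below may have a neighbor there. Of the 550, 302 had fewer PETs in the PDS list, 182 had equal PETs and 66 had more. With 3 PETs in the mock list, as 180 of the 550 had, a shared loop could not have fewer. Elsewhere, 3755 of 6783 shared loops had fewer PETs in the PDS list, 2027 had equal PETs and 1001 had more. The share of mock loops that were also in the PDS list was higher at more PETs, from 7.11% of mock loops with 3 PETs to 37.5% of those with 7 to 9 PETs. Of the mock loops with 10 or more PETs, 50% (37.5 to 62.5) were in the PDS list, against 63.9% (59.8 to 67.8) elsewhere. On chromosome 17, 29 of these 58 strongest mock loops were absent from the PDS list.

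The strongest loops of both lists joined anchors in the gene-free stretch around the centromere. The loop between chr17:25114612-25116826 and chr17:26602137-26606048, 1488 kb apart, had 34 mock and 29 PDS PETs. A loop between chr17:25787559-25790269 and chr17:25919161-25921826 had 24 and 13 PETs. The anchor chr17:25388800-25391517 joined the same second anchor with 21 and 16 PETs. In total the stretch held 22 mock and 16 PDS loops, a ratio of 0.727 (0.386 to 1.37), and 14 were shared. Each of them had an anchor in which between 93.1% and 100% of the 31-base sequences occurred more than once in the reference, against a median of 18.1% for mock loops outside the stretch. Whether repeated sequence set these counts was not tested. Without the stretch the chromosome ratio was 0.271 (0.255 to 0.289).

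**Figure D3:**
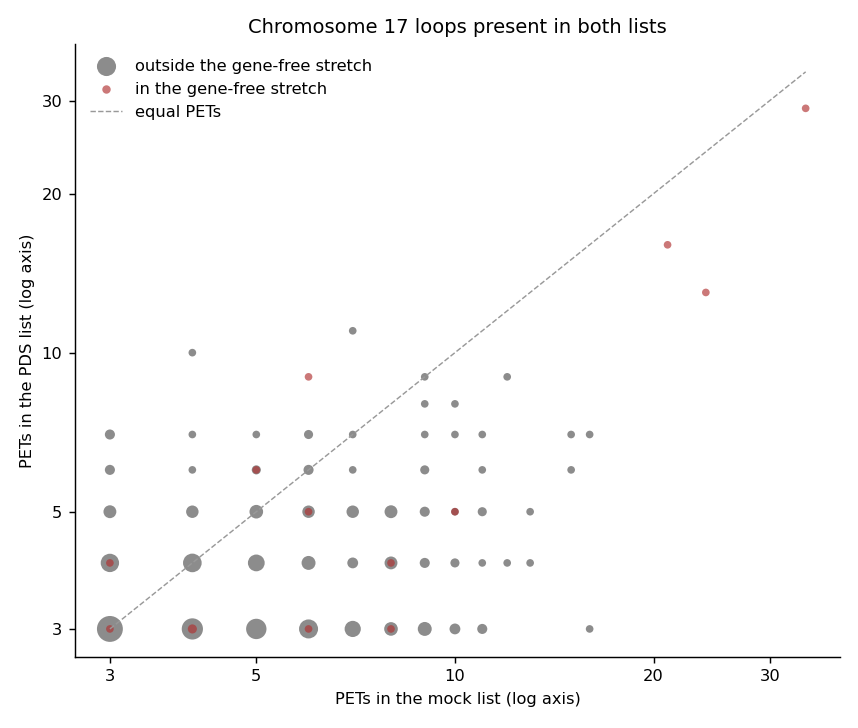
PETs in the mock list against PETs in the PDS list (both log axes) for the 550 chromosome 17 loops present in both lists, where the area of a point grows with the square root of the number of loops at it. The 3 loops with the most PETs lie in the gene-free stretch, and 302 of the 550 loops lie below the dashed line of equal PETs.

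Outside that stretch, the mock loops with the most PETs lay in or beside genes, apart from a loop over 412 kb between gene-free anchors with 13 mock and 4 PDS PETs. The loop from VMP1, which codes for a membrane protein of autophagy, to TUBD1 had 16 mock and 7 PDS PETs over 10.4 kb. A loop over 12.4 kb within CYGB, which codes for cytoglobin, and PRCD also had 16 mock PETs and 3 PDS PETs. Its anchors, chr17:76519973-76528829 and chr17:76530641-76543003, held 2 and 14 motifs. Some strong loops had no PDS counterpart. The loop at GSDMA, a gene of the gasdermin family, had 15 mock PETs, that at NHERF1, which codes for a scaffold of apical membrane transporters, had 14, and that within ASPSCR1 had 14. None of these was in the PDS list.

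Of the shared loops, 66 had more PETs in the PDS list. The loop between the promoters of SAMD14 and PPP1R9B, which codes for the scaffold spinophilin, had 7 mock and 11 PDS PETs over 14.5 kb. The loop from TSPOAP1 to RNF43, which codes for a ubiquitin ligase that restrains Wnt signaling, had 4 mock and 10 PDS PETs over 91.1 kb. Its TSPOAP1 anchor held 8 motifs and its RNF43 anchor 0. Of the 1218 PDS loops, 668 were absent from the mock list, and 40 of these had at least 5 PETs. Elsewhere 10777 of 17560 PDS loops were absent from the mock list, and 495 of these had at least 5 PETs.

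Anchors varied widely in use. The 4630 anchors of either list had a median width of 5594 bp. The 4249 anchors used in the mock list joined 2.09 loops on average, and the 1818 used in the PDS list joined 1.34. In the mock list 57 anchors had at least 8 loops, and in the PDS list 0 had. The busiest mock anchors, with 16 loops each, were chr17:79910870-79939642 in TBC1D16, with 3 PDS loops and 36 motifs, and chr17:61255377-61287198 in BCAS3, with 6 PDS loops and 3 motifs. The anchor over the BAHCC1 promoter, chr17:81390077-81434608, had 14 mock and 6 PDS loops and 81 motifs. In contrast, the anchor chr17:65793705-65820956 in CEP112 had 12 mock and 6 PDS loops and 0 motifs. Wide anchors can hold more loops and more motifs. Per kb, the anchors in TBC1D16, BCAS3, BAHCC1 and CEP112 held 1.25, 0.0943, 1.82 and 0 motifs. Loop numbers were not divided by width.

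Promoters of 897 of the 1186 coding genes (75.6%, 73.1 to 78.0) had at least 1 mock loop, and promoters of 487 (41.1%, 38.3 to 43.9) had a PDS loop. On the other chromosomes the shares were 59.0% and 28.0%. Both lists had a loop at 461 genes, the mock list alone at 436 and the PDS list alone at 26. At 302 genes with at least 5 mock promoter loops, 63 (20.9%, 16.7 to 25.8) had no PDS loop, against 21.1% of such genes over all chromosomes. None of the 302 had as many PDS loops as mock loops, which allows a share of up to 0.993%, and over all chromosomes 0.374% had.

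The 10 genes with the most mock promoter loops all lay on the long arm. Their start sites lay at 3 (BAHCC1) to 11 (SEPTIN9) different anchors, and loop numbers were not divided by the number of anchors or start sites. SEPTIN9, which codes for a filament-forming GTPase of the cytoskeleton (chr17:77280569-77500596), had the most PDS promoter loops and, with BCAS3, the most mock ones, with 33 mock loops of 140 PETs and 13 PDS loops of 47 PETs. BCAS3 (chr17:60677453-61392838) also had 33 mock loops, of 137 PETs, and 8 PDS loops of 28 PETs. CEP112, a gene of the centrosome, had 27 mock and 6 PDS loops, and none of them was shared. CCDC57 had 24 and 6, the polarity gene LLGL2 had 23 and 6, and SPAG9, which codes for a scaffold of JNK signaling, had 23 and 5. MSI2, which codes for an RNA-binding protein of the Musashi family, had 23 and 8. SEC14L1 had 22 and 8, BAHCC1, which codes for a BAH-domain chromatin protein, had 20 and 7, and ERN1, which codes for a sensor of unfolded proteins, had 20 and 3. Counting loops anywhere over the gene, BCAS3 had 92 mock and 26 PDS loops, CEP112 had 72 and 23, and SLC39A11 had 55 and 14. PRKCA, which codes for a protein kinase C, had 50 and 13. These are long genes, from 447 kb (SLC39A11) to 715 kb (BCAS3), and loop numbers were not divided by gene length.

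Further genes had many PDS promoter loops without being among the 10 with the most mock loops. TBCD, which codes for a tubulin-folding cofactor, had 17 mock and 9 PDS loops. MGAT5B, which codes for an enzyme of N-glycan branching, had 10 and 8, and 5 of these were shared. The lactate exporter gene SLC16A3 and CYTH1 both had 14 mock and 7 PDS loops, and CDC27, which codes for a subunit of the anaphase-promoting complex, had 19 and 6, a number of PDS loops that CEP112, CCDC57 and LLGL2 also had.

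**Figure D4:**
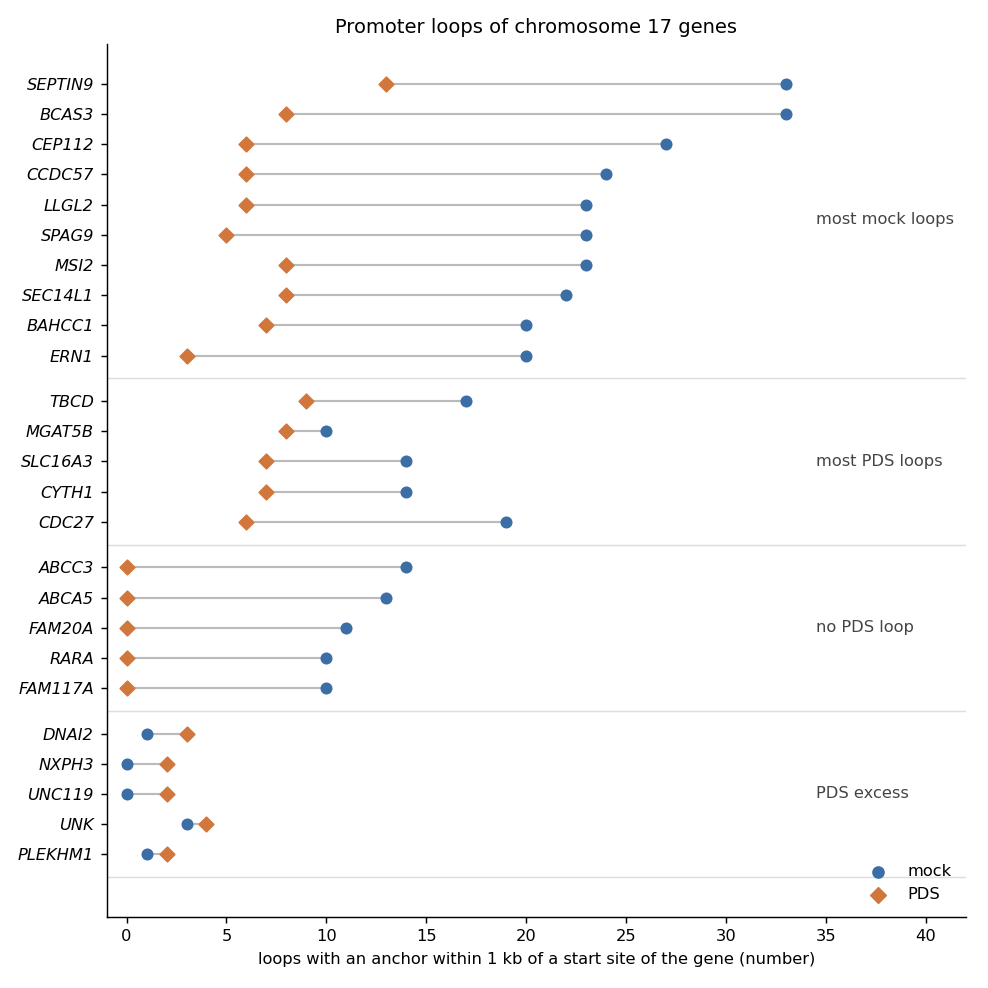
Number of promoter loops in the mock list (circles) and the PDS list (diamonds) for the genes with the most mock loops, further genes with the most PDS loops, genes with many mock loops and no PDS loop, and genes with the largest excess of PDS loops. SEPTIN9 had 33 and 13 loops, ABCC3 14 and 0, and DNAI2 1 and 3.

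Other genes had many mock loops and no PDS loop. ABCC3, which codes for an exporter of bile salts and conjugates (chr17:50634777-50692253), had 14 mock loops of 58 PETs. The loop from its promoter anchor chr17:50625474-50637704 into the gene had 8 PETs, and that from an inner start site to the ANKRD40 promoter had 9. ABCA5, of the lipid-transporting ABCA family, had 13 mock loops, FAM20A, which codes for a pseudokinase of the secretory pathway, had 11, RARA, the gene of the retinoic acid receptor alpha, had 10, and FAM117A had 10. Over the gene bodies, ABCC3 still had 2 PDS loops and FAM117A 1, while the other 3 had 0. POLR2A (chr17:7484366-7514616) had 3 mock loops of 9 PETs and 0 PDS loops.

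More PDS than mock promoter loops were found at 32 of the 1186 coding genes (2.70%), and more mock than PDS ones at 815 (68.7%). The same shares are not given here for other chromosomes, so the count is not a trait of chromosome 17. The largest excess, of 2 loops, was found at 3 genes. DNAI2, which codes for an axonemal dynein chain, had 1 mock and 3 PDS loops, but 3 and 3 with promoters of 2500 bp on either side. NXPH3 and UNC119, which codes for a carrier of lipidated proteins, had 0 and 2 each. UNK had 3 and 4, and the endolysosomal adaptor gene PLEKHM1 had 1 and 2. The UNC119 anchor reached the promoters of ALDOC, PIGS and SPAG5. All these differences are of 1 or 2 loops.

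Gene lists were described by their counts, beside those of all coding genes. Of 30 genes of liver metabolism and secretion, 27 (90%) had a mock loop and 12 (40%) had a PDS loop, with 112 and 18 different loops and a ratio of 0.161 (0.0982 to 0.263). Of all coding genes of the chromosome, 75.6% and 41.1% had such loops, and together they had 2610 and 660 promoter loops, a ratio of 0.253 (0.232 to 0.275), with medians of 2 and 0 loops per gene. The fatty acid synthase gene FASN had 9 mock and 1 PDS loops, and the fatty aldehyde dehydrogenase gene ALDH3A2 had 8 and 1. STAT3, which codes for a factor of the acute-phase response, had 8 and 1. Without PDS loops were G6PC1 with 7 mock loops, the citrate lyase gene ACLY with 6, SREBF1, which codes for a factor of lipid synthesis, with 6, and APOH, which codes for a plasma apolipoprotein, with 5. IGFBP4, which codes for a binding protein of insulin-like growth factors, had 5 and 3, and SOCS3, which codes for an inhibitor of cytokine signaling, had 0 and 1.

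The G6PC1 promoter anchor chr17:42899697-42911992 joined 7 others in the mock list. Of these loops, those to both neighboring anchors had 9 PETs each and the other 5 had 3 PETs each. At FASN, the loop over 24.6 kb to the DUS1L promoter had 6 PETs in both lists, while the strongest FASN loop of the mock list, with 7 PETs over 59.0 kb, was absent from the PDS list.

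Genes of the transcription machinery were looped in 17 of 18 cases in the mock list and 10 of 18 in the PDS list, with 83 and 18 different loops, a ratio of 0.217 (0.131 to 0.359). CDK12, which codes for a kinase of the RNAPII tail, had 16 mock and 2 PDS loops. The corepressor gene NCOR1 had 10 and 5, and the histone acetyltransferase gene KAT7 had 8 and 1. Of the Mediator genes, MED24 had 7 and 0, MED1 5 and 1, and MED13 1 and 1. CDK12 and MED1 shared a loop of 9 mock PETs over 11.7 kb, absent from the PDS list. All 6 ribosomal protein genes had mock loops, 13 in all, and RPL27 and RPL38 had 1 PDS loop each. Of 7 proteasome genes, 6 had mock loops and 3 had PDS loops, 22 and 4 in all.

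Clusters of tissue-restricted genes ranged from no promoter loop to loops at most members. Of 27 type I keratin genes, 13 had mock and 8 had PDS loops, with 25 and 9 different loops and a ratio of 0.360 (0.171 to 0.758). KRT12 and KRT20 had the same 10 mock and 2 PDS loops. The HOXB cluster of developmental regulators had 5 mock and 2 PDS loops, at 7 and 5 of its 10 genes. Among 14 chemokine genes, CCL16 had 1 mock loop and CCL3 had 1 PDS loop. The 6 sarcomeric myosin genes had no promoter loop, and of 12 olfactory receptor genes OR4D2 alone had loops, 3 in the mock list and 0 in the PDS list. At the growth hormone cluster, whose genes are close copies of each other, 6 mock and 2 PDS loops were found, and the assignment of reads among copies is uncertain.

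**Figure D5:**
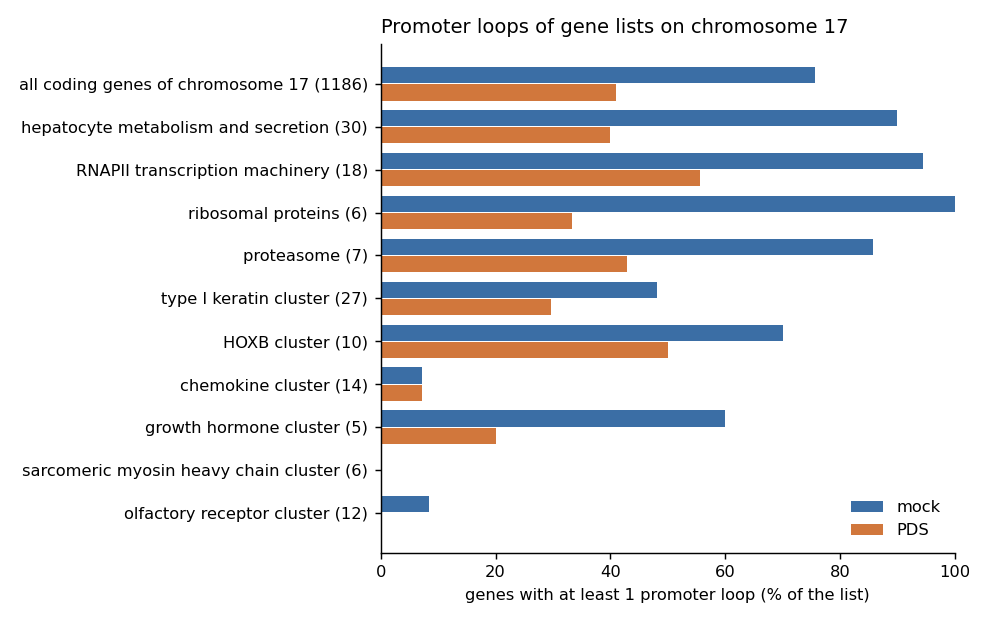
Share of genes with at least 1 promoter loop in the mock and PDS lists for gene lists on chromosome 17, with the number of genes in brackets. Liver metabolism genes had loops in 90% and 40% of cases, all coding genes in 75.6% and 41.1%, and the myosin cluster had none.

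As a check of the cell type, the promoters of 11 hepatocyte genes on other chromosomes were examined. ALB had 13 mock and 3 PDS loops, HNF4A had 13 and 6, and AFP, a marker of fetal liver and hepatocellular carcinoma, had 5 and 1. Of the 11 genes, 10 had a mock loop and 9 had a PDS loop.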

How the data were processed

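POLR2A HiChIP-seq was performed in HepG2 cells, with 2 replicates of mock-treated and 2 of PDS-treated cells. The authors processed reads with HiC-Pro 3.1.0 per the methods, mapped them to GRCh38, removed duplicates and deposited 1 loop list per condition, in which the last column holds the PET count of each loop. The tool that called loops, the way in which replicates were combined and the depth of the libraries are not given in the sources used here. The deposited counts were used as they stand, with no normalization. No test between conditions could be made, and no column of per-sample values was left unmapped (0).

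Loops were read in Python 3.11.15 with pandas 2.3.3, numpy 2.4.6 and scipy 1.17.1, sequences with pysam 0.24.0 and samtools 1.23.1, and figures were drawn with matplotlib 3.10.9. A loop was shared if both lists held the same pair of anchors. Distance was measured between anchor midpoints, and loops were placed in windows and arms by their midpoint. Promoters were the start sites of coding genes in GENCODE 44, extended by 1 kb. An anchor was called multi-copy if more than 20% of its 31-base sequences occurred more than once in the reference (counted with numba 0.67.0), and a loop if either anchor was. Ratios have 95% intervals derived from a Wilson interval on the part of all loops that PDS contributed, shares have Wilson intervals, ratios of ratios have Wald intervals on the log scale, and medians have intervals from binomial ranks. PETs are not independent molecules, so intervals on PETs are too narrow. Functions were tested on simulated data. Promoter sequences came from RefSeq, whose windows matched 804 of 1186 coding genes by symbol, too few to compare genes by motif.

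Genes were named by rule: the 10 with the most mock or PDS loops at promoters, those at the 5 loops with the most PETs, the 5 with the most mock loops and no PDS loop, the 5 with the largest PDS excess, POLR2A and members of the lists, with ties broken by PETs and then by symbol. Members, lists and rules were chosen with earlier results of these data known. Genes named for loops over the gene body, 1 Mb bins, example loops with their genes, printed sequences and anchors were picked after their values were seen. Alternatives changed the PET minimum, distance, promoter width, motif, arm boundary, window offset, overlap rule and multi-copy sequence.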

Additional observations from a re-analysis of the deposited data

How the results depend on the processing

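Of 56 alternatives, 28 left a value within its interval or within 1.5 times a count, 28 moved it and 0 turned its direction. With at least 4 or 5 PETs, the loop ratio was 0.196 or 0.141 on the chromosome, 0.130 or 0.04 on the short arm and 0.206 or 0.152 on the long arm. At 4 PETs the median distance was 15246 bp (mock) and 15825 bp (PDS), the mock promoter share 61.9%, and 95 genes in place of 302 had at least 5 loops. At 5 PETs the PET ratio was 0.133 and the shared part 7.35% of mock loops, while anchors extended by 5 kb gave 28.3%. PETs divided by the list total gave a ratio of 0.935. Without multi-copy anchors, the chromosome 17 ratio over that elsewhere was 0.901. PETs in place of loops gave 3 windows above and 3 below the chromosome ratio, and windows moved by 2.5 Mb gave 1 above. Promoter shares (mock and PDS) were 62.7% and 58.5% at 2500 bp and 33.3% and 29.6% with the gene start only. Motif shares were 89.8% and 89.4% with spacers of up to 12 bases, 27.2% and 28.5% with runs of at least 4 G, and 42.9% and 43.4% for motifs in both anchors. Leaving out the gene-free stretch, an alternative chosen after seeing the data, moved none of its 4 values. An arm boundary at the longest stretch without an anchor fell at 11.4 Mb, inside the short arm. No paired analysis was possible because the replicates were combined before deposit, and for the same reason 2 further settings, leaving out each replicate and the replicate block, were not run. Loops of 3 PETs, the minimum of both lists, were 56.9% of mock and 69.0% of PDS loops. How far library depth set the number of loops at each PET count was not tested.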

Other observations

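An unlocalized contig of chromosome 17 in the reference was not counted among the loops above. It held 12 mock loops of 52 PETs and 11 PDS loops of 41 PETs, a ratio of 0.917 (0.413 to 2.03), and 6 loops were in both lists. Between 12.1% and 88.0% of the 31-base sequences of its loop anchors occurred more than once in the reference.

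Several genes carried most of their loops away from their promoters. VMP1, a gene of autophagy, had 33 mock and 9 PDS loops over the gene, but 8 and 0 at its promoters. PRKCA had 50 and 13 over the gene, and 3 and 0 at its promoters. RPTOR, which codes for a subunit of the mTORC1 kinase complex, had 43 and 7 over the gene. PITPNC1 had 21 and 13, and RBFOX3, which codes for a splicing factor of neurons, had 17 and 10.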
